A study of Mus musculus with 8 samples.

Results

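The genes described are 44 genes of autophagy and of the mTORC1 and TFEB pathway that steers it, out of 54532 genes in the count table. They were taken by name, with earlier results of these data known, and matched by Ensembl identifier through the GENCODE symbols of the mouse build mm10. RNA was sequenced from microglia that had been isolated from the cords of 8 female mice by cell sorting, with 1 library per mouse. The 4 knock-in (KI) mice, numbered 513, 526, 528 and 549, carry the genotype that the labels call Cd11b-P2X4mCherryIN, and the 4 wild-type (WT) mice are numbered 503, 504, 506 and 527. P2X4, encoded by P2rx4, is an ATP-gated cation channel, and P2X4mCherryIN is known as a fluorescently tagged form of it that is not internalised from the cell surface. The sort kept living CD11b+ cells with low CD45 and without Ly6C. The labels name no treatment, age, allele count or batch for either group.

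Autophagy delivers cytoplasm, organelles and protein aggregates to lysosomes in a double-membrane vesicle, the autophagosome, and microglia use it together with phagocytosis to clear material from the cord. mTORC1 is a kinase complex that is switched on at the lysosome surface when nutrients are plentiful, through the Rag GTPases, the Ragulator scaffold that holds them there, and Rheb. Active mTORC1 phosphorylates ULK1, which holds back the start of autophagy, and phosphorylates TFEB and TFE3, which keeps these transcription factors out of the nucleus. Lysosomal genes that TFEB, TFE3 and MITF bind often carry a motif with the core CACGTG near their start. P2X4 itself normally cycles between the surface and lysosomes.

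The libraries held 45167483 to 54049801 assigned reads. P2rx4 had 859 ± 62.7 CPM (read counts scaled to library size) in KI and 793 ± 43.5 CPM in WT (SD, n = 4 each), with an adjusted p of 0.735 in edgeR's quasi-likelihood test, and gene-level counts do not separate the knock-in transcript from the normal one. Microglial markers such as P2ry12, Tmem119 and Cx3cr1 were abundant in every library, and the 11 on the list summed to 35611 to 40238 CPM in KI and 37241 to 41993 CPM in WT. The summed neutrophil markers (6 genes) stood at 17.1 and 52.0 CPM in KI mice 513 and 528 and at 18.4 CPM in WT mouse 504, and at no more than 0.421 CPM in the other libraries. The summed lymphocyte markers (8 genes) ran from 0.268 to 3.84 CPM in KI and from 0.584 to 2.56 CPM in WT. The summed erythroid markers (5 genes) stood at 196 ± 102 CPM in KI and 394 ± 168 CPM in WT, from 96.2 to 306 CPM in KI and from 159 to 523 CPM in WT, with an exact permutation p of 0.114 and an adjusted p of 0.536 over 15 library measures. Each of the 5 was lower in KI, at 0.44 to 0.63 times the WT level, with unadjusted edgeR p-values from 0.032 to 0.061 and adjusted ones from 0.604 to 0.670. Haemoglobin genes are near-identical copies, so their counts are uncertain gene by gene. No marker list had a gene at 0 in all 8 libraries. The summed immediate early genes (13 genes, Fos and Jun among them) ran from 4194 to 11183 CPM in KI and from 4234 to 11004 CPM in WT. They were lowest in KI mouse 526 and WT mouse 504. The summed level of each list overlapped between the groups, and the part of the lists in the results was not tested. Deviations were taken from the mean of the 8 libraries, so the group means of their slopes are equal and opposite. The slope of a library's log2 deviation on exon length was -0.0129 ± 0.0081 per doubling in KI and 0.0129 ± 0.0094 in WT, without overlap, with an exact permutation p of 0.0286 and an adjusted p of 0.429 over 15 library measures. The slope on GC content was -0.051 ± 0.064 log2 units per 10 percentage points in KI and 0.051 ± 0.045 in WT, with overlap (exact permutation p = 0.0571, adjusted p = 0.429).

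To show the CACGTG core in its setting, the promoter windows of 3 members are given, from RefSeq on GRCm38.p6, each covering 250 bases before to 50 bases after the transcription start, 5′ to 3′ on the gene's strand, with the motif in capitals. Atg3 and Lamtor4 hold 2 copies each, and Flcn, whose KI and WT libraries did not overlap, holds none. The Atg3 window is chr16:45158579-45158878 on the plus strand, the Lamtor4 window is chr5:138255232-138255531 on the plus strand, and the Flcn window is chr11:59809990-59810289 on the minus strand.
Atg3: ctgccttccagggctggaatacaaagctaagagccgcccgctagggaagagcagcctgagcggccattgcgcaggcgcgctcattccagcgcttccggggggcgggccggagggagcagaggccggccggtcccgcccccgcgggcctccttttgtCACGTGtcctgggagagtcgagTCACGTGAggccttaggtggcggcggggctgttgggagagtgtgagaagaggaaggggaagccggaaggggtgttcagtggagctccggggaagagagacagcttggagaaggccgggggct
Lamtor4: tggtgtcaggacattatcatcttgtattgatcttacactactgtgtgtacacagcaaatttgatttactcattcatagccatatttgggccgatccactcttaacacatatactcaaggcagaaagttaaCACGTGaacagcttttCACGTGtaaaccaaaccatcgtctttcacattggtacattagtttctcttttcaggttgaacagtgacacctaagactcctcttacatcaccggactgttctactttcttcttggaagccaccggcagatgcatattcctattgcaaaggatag
Flcn: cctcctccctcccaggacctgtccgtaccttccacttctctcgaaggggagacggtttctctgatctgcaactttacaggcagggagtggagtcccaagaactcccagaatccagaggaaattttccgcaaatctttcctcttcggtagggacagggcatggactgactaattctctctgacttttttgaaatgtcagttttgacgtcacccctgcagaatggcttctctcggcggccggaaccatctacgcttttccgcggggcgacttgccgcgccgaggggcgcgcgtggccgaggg
In Atg3 the copy nearer the start sits inside the longer palindrome TCACGTGA. Each motif was searched on both strands, and CACGTG is contained in every TCACGTGA. Promoter windows were found for 37 of the 44 genes. CACGTG lay in 9 of their 42 windows (21.4%), compared with 2349 of all 32851 windows (7.15%). The members with it were Atg3, Atg5, Atg7, Atg14, Fnip1, Lamtor1, Lamtor4, Rheb and Rragc. The Atg7 window, chr6:114670846-114671145 on the plus strand, lies well inside the counted gene, which starts at base 114643097. TCACGTGA lay in 1 of the 42 windows and in 320 of all windows (0.974%).

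All 44 genes passed the filter on low counts and were among the 17291 genes tested. None passed the test of KI against WT: edgeR's quasi-likelihood test called 0 of 44 at an adjusted p under 0.05, against 0% of all genes tested, and the lowest adjusted p among the members was 0.507. At an unadjusted p under 0.05, 5 of 44 members (11.4%) were counted, against 7.79% of all genes. Counted as lower in KI were 4 of 44 members, against 4.56% of all genes. Among all genes counted, 788 of 1347 were lower, and among the members counted 4 of 5. The KI and WT libraries did not overlap for 3 members (6.82%), against 4.94% of all genes. Without overlap and lower in KI were 3 of 44 members, against 2.6% of all genes. Among all genes without overlap, 450 of 855 were lower, and among the members without overlap all 3. The log2 fold change of KI over WT was below 0 for 31 members and above 0 for 13, with a median of -0.11, against 0.00053 over all genes tested. DESeq2 called 1 member, Epg5, at an adjusted p under 0.05, against 1.26% of the 19637 genes that it gave an adjusted p. In sorted bulk RNA, fewer cells of a kind and less RNA per cell cannot be told apart, and p-values measure the spread between these mice.

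The precision differed between members. The 95% interval of the KI over WT fold change lay within 1.5-fold in either direction for 26 of 44 members (59.1%) and within 2-fold for 37 (84.1%), against 38.6% and 58.8% of all genes tested. Reads summed over the 8 libraries ranged from 749 for Mlst8 to 139868 for Map1lc3b. The coefficient of variation of a member had a median of 14.2% in KI and 10.7% in WT.

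**Figure D1:**
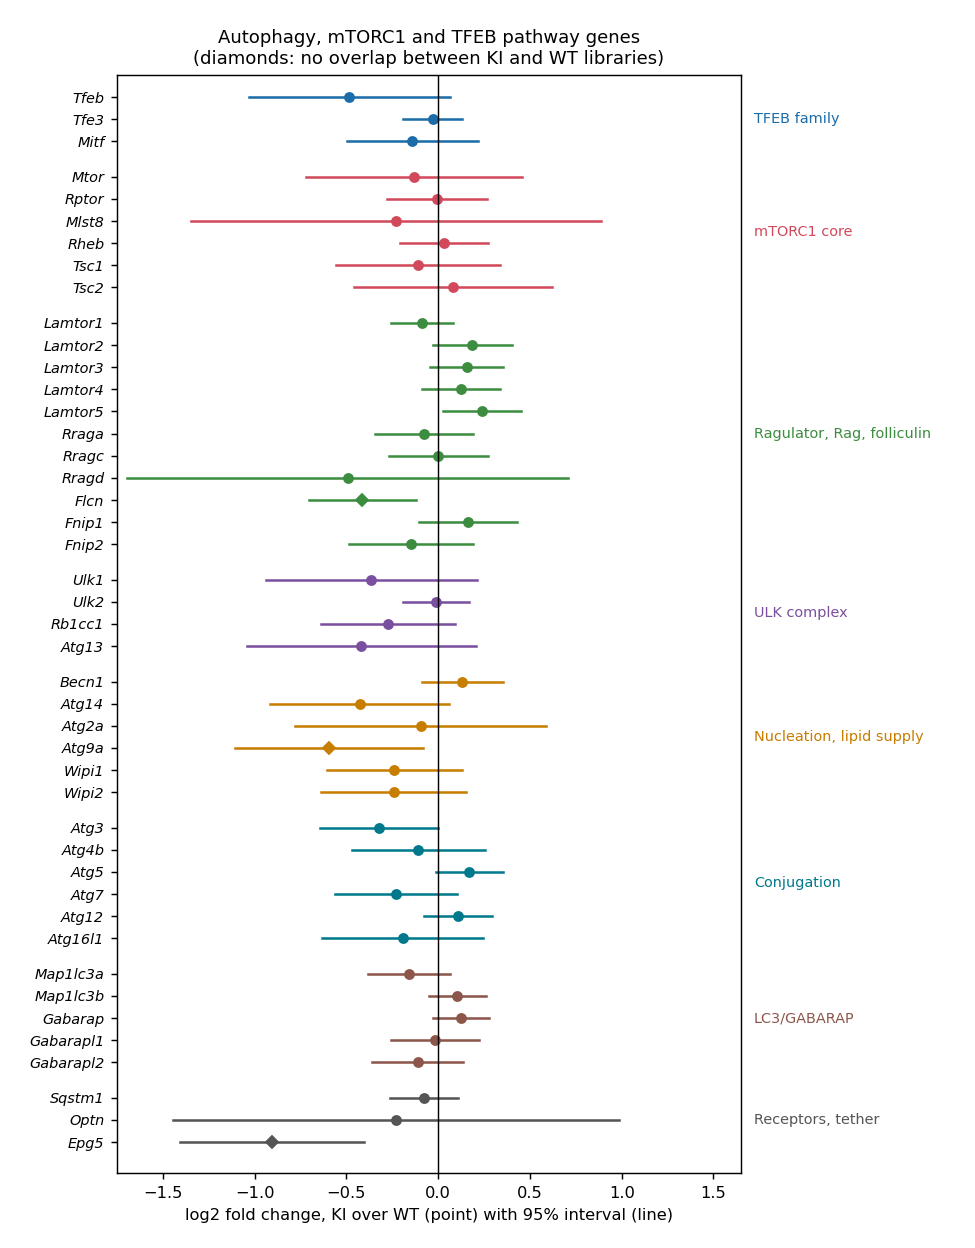
Log2 fold change of KI over WT (points) with its 95% interval (lines) for the 44 genes, grouped by role, from edgeR's quasi-likelihood fit with n = 4 each. Diamonds mark Epg5, Atg9a and Flcn, for which the KI and WT libraries did not overlap, and of the other intervals those of Lamtor5 and Atg3 exclude 0.

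Per exon length, the members spanned a wide range of levels. Mean FPKM (read counts scaled to library size and exon length) over the 8 libraries ran from 0.589 for Mlst8, a subunit of mTORC1, to 103 for Lamtor5, with a median of 11.5. A level of at least 10 FPKM was reached by 22 members, and 11 were under 2. The most abundant were the small adaptor genes: Lamtor5 had 111 ± 14.8 FPKM in KI and 95.03 ± 3.53 in WT, Gabarap had 104 ± 7.0 in KI and 96.5 ± 4.0 in WT, and Lamtor2 had 86.8 ± 6.6 in KI and 76.8 ± 8.7 in WT (SD, n = 4 each). Lamtor5 and Gabarap overlapped within 1 SD in each group, and Lamtor2 lay below both by more than that. The kinases that control the pathway were low: Mtor had 1.45 ± 0.37 FPKM in KI and 1.61 ± 0.57 in WT, and Ulk1 had 0.892 ± 0.305 in KI and 1.15 ± 0.18 in WT. Ulk2, which encodes a close relative of ULK1, had 21.8 ± 1.2 FPKM in KI and 22.2 ± 1.6 in WT.

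**Figure D2:**
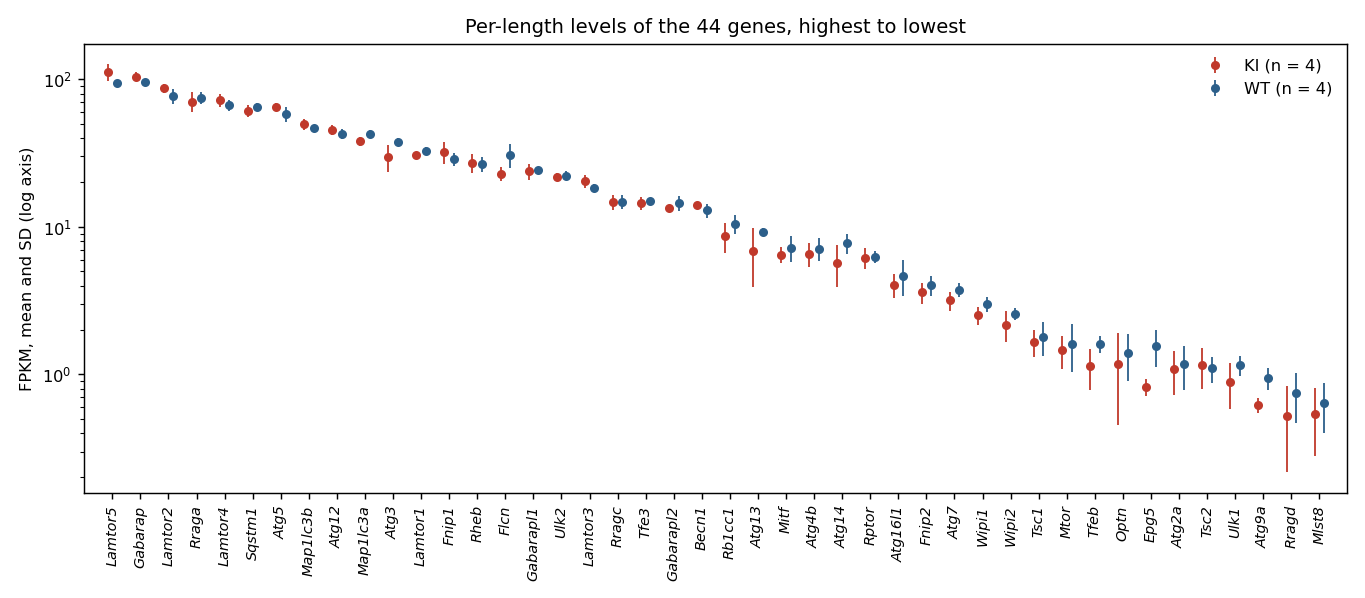
Mean FPKM with SD (log axis) of the 44 genes in KI and WT (n = 4 each), ordered by the mean over all 8 libraries. Levels run from 103 FPKM for Lamtor5 to 0.589 FPKM for Mlst8, and the KI and WT points of a gene lie close together compared with the span between genes.

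The TFEB family of transcription factors, which switch on lysosomal and autophagy genes, was led by Tfe3. Tfe3 had 14.4 ± 1.5 FPKM in KI and 14.8 ± 0.5 in WT, Mitf had 6.48 ± 0.82 in KI and 7.22 ± 1.48 in WT, and Tfeb had 1.14 ± 0.35 in KI and 1.61 ± 0.21 in WT. Tfe3 counts were 125, 144, 122 and 135 CPM in KI, against 137, 130, 134 and 137 CPM in WT. The WT values lie inside the KI range, and the log2 fold change was -0.03 (95% interval -0.19 to 0.13, edgeR adjusted p = 0.964).

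Tfeb had 5.85, 4.31, 5.99 and 9.02 CPM in KI, against 7.52, 9.25, 8.12 and 10.3 CPM in WT. Of the KI mice, 3 were below all WT mice and mouse 549 lay within the WT range. The fitted log2 fold change of -0.48 had an SE of 0.25 and a 95% interval of -1.03 to 0.06 (edgeR adjusted p = 0.692). The log2 ratio of Tfeb to Tfe3 FPKM within a library averaged -3.70 ± 0.48 in KI and -3.21 ± 0.21 in WT (exact permutation p = 0.0857, adjusted p = 0.257 over 12 ratios). All 3 members of the family had log2 fold changes below 0, with a median of -0.14, and none was counted at an unadjusted p under 0.05.

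The mTORC1 core comprised 6 genes: the kinase Mtor, its partners Rptor and Mlst8, the activating GTPase Rheb, and Tsc1 and Tsc2, whose products form the complex that switches Rheb off. Mtor had 10.8, 13.98, 20.1 and 13.1 CPM in KI, against 23.3, 12.2, 16.5 and 11.5 CPM in WT. The groups overlapped over most of their range, with a log2 fold change of -0.13 (95% interval -0.72 to 0.46, edgeR adjusted p = 0.956). Over the 6 genes 2 were above 0 and 4 below, between -0.23 for Mlst8 and 0.08 for Tsc2, with a median of -0.06. The Rptor fold change had a 95% interval of -0.28 to 0.27 and that of Rheb -0.21 to 0.27 on the log2 scale. Of the Mlst8 exon bases, 29.6% are shared with Bricd5 on the other strand, and the counts were made without strand.

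The 11 Ragulator, Rag and folliculin genes were split in direction. Flcn encodes folliculin, which with the FNIP proteins acts on RagC and RagD and is needed for mTORC1 to phosphorylate TFEB. Flcn had 103, 89.9, 83.2 and 104 CPM in KI, against 105, 118, 159 and 124 CPM in WT. All 4 KI mice were below all 4 WT mice, with KI mouse 549 and WT mouse 503 close to each other. On the log2 scale KI over WT came to -0.41, with an SE of 0.13 and a 95% interval of -0.70 to -0.12 (unadjusted p = 0.010, edgeR adjusted p = 0.548).

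Lamtor5, which encodes a Ragulator subunit, had 66.1, 88.3, 79.2 and 77.4 CPM in KI, against 68.6, 66.6, 63.4 and 65.4 CPM in WT. KI mouse 513 lay within the WT range and the other 3 KI mice were above it. This gave a log2 fold change of 0.24, with an SE of 0.10 and a 95% interval of 0.02 to 0.45 (unadjusted p = 0.033, edgeR adjusted p = 0.604). A transcript of Gm15190 matches Lamtor5 over 276 bases at 97.8% identity, so reads may be placed at either. Lamtor2, Lamtor3 and Lamtor4 had log2 fold changes of 0.19, 0.15 and 0.12, and Lamtor1 had -0.09, each with an edgeR adjusted p of at least 0.693. Lamtor3 is likewise matched by a transcript of Gm5900, over 375 bases at 99.5% identity. Lamtor1 shares 18.7% of its exon bases with Lrrc51 on the other strand.

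Fnip1 and Fnip2 encode the folliculin partners. Fnip1 had 275, 220, 207 and 187 CPM in KI and 204, 215, 207 and 169 CPM in WT, and Fnip2 had 35.3, 31.1, 26.4 and 25.3 CPM in KI and 34.9, 38.0, 31.4 and 26.4 CPM in WT. Both overlapped between groups, but their ratio within a library did not: log2 of Fnip2 over Fnip1 FPKM averaged -3.15 ± 0.07 in KI and -2.85 ± 0.10 in WT (n = 4 each), with an exact permutation p of 0.0286, the smallest that 4 against 4 allows, and an adjusted p of 0.171 over the 12 ratios. Rragd was low at 0.526 ± 0.309 FPKM in KI and 0.743 ± 0.278 in WT, against 14.7 ± 1.6 in KI and 14.8 ± 1.7 in WT for Rragc. Over the 11 genes 6 were above 0 and 5 below, with a median of 0.0017.

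The ULK complex, which starts autophagosome formation, had 4 members, all below 0, with a median log2 fold change of -0.32 and none counted at an unadjusted p under 0.05. Ulk1 had 6.30, 7.86, 4.39 and 3.93 CPM in KI, against 8.66, 6.14, 7.13 and 7.003 CPM in WT. KI mice 528 and 549 were below the WT range and the others within it, at a log2 fold change of -0.36 with a 95% interval of -0.94 to 0.21 (SE 0.26, edgeR adjusted p = 0.805). The scaffold genes Atg13 and Rb1cc1 had -0.42 and -0.27, with adjusted p of 0.793 and 0.750, and Ulk2 had -0.01 (95% interval -0.19 to 0.17). Atg13 was most spread in KI, at 33.5, 26.1, 13.1 and 42.2 CPM, against 40.1, 39.4, 38.5 and 35.6 CPM in WT.

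Vesicle nucleation and lipid supply had 6 members, of which 5 were below 0, with a median of -0.24. Atg9a encodes a lipid scramblase on the vesicles that seed the autophagosome. It had 3.13, 3.90, 3.40 and 3.47 CPM in KI, against 5.18, 4.98, 4.33 and 6.51 CPM in WT. All KI mice were below all WT mice, at a log2 fold change of -0.60 with an SE of 0.23 and a 95% interval of -1.11 to -0.08 (unadjusted p = 0.027, edgeR adjusted p = 0.598). Of its exon bases, 32.6% are shared with other annotated genes, one of them Gm29253, so part of its reads cannot be assigned to it alone.

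Becn1 encodes beclin 1, a subunit of the lipid kinase complex that marks the forming membrane. It had 101, 92.5, 105 and 90.1 CPM in KI, against 73.8, 96.9, 90.1 and 93.6 CPM in WT. The groups overlapped, with WT mouse 503 the lowest of the 8, and the log2 fold change was 0.13 (95% interval -0.09 to 0.35, edgeR adjusted p = 0.811). Its exons share 43.9% of their bases with Cntd1 on the other strand. Atg14, the beclin 1 partner that directs the complex to autophagy, had -0.43 (95% interval -0.92 to 0.06, edgeR adjusted p = 0.692), and Wipi1, Wipi2 and Atg2a lay between -0.24 and -0.10.

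The conjugation enzymes, which attach LC3 and its relatives to the membrane lipid, had 6 members, 2 above 0 and 4 below, with a median of -0.15. Atg3 encodes the enzyme that makes the final transfer of LC3 to the lipid, and its window with CACGTG and TCACGTGA is given above. Atg3 had 92.9, 87.6, 110 and 63.1 CPM in KI, against 106, 116, 117 and 104 CPM in WT. KI mouse 528 lay within the WT range and the other 3 KI mice were below it, mouse 549 most of all. The fit gave -0.32 on the log2 scale, with an SE of 0.14 and a 95% interval of -0.65 to -0.0020 (unadjusted p = 0.049, edgeR adjusted p = 0.640). Atg5 and Atg12, whose products are joined to each other, had 0.17 and 0.11, and Atg7, which encodes the activating enzyme, had -0.23, with adjusted p of 0.676, 0.821 and 0.779.

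The LC3 and GABARAP genes encode the small proteins that coat the autophagosome, and all 5 had 95% intervals within 1.5-fold. Map1lc3b had 347, 358, 415 and 340 CPM in KI, against 344, 346, 327 and 341 CPM in WT. KI mouse 528 was the highest of the 8 and the groups overlapped, with a log2 fold change of 0.10 (95% interval -0.05 to 0.26, edgeR adjusted p = 0.790). Its transcripts match 15 other annotated genes at 97% identity or more over at least 150 bases, so its counts are uncertain. The log2 fold changes of the 5 genes lay between -0.16 for Map1lc3a and 0.12 for Gabarap, with a median of -0.02.

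Within a library, Gabarapl2 over Gabarap FPKM averaged -2.97 ± 0.11 on the log2 scale in KI and -2.74 ± 0.13 in WT, without overlap (exact permutation p = 0.0286, adjusted p = 0.171 over 12 ratios). Map1lc3a over Map1lc3b averaged -0.39 ± 0.14 in KI and -0.13 ± 0.07 in WT, with overlap (exact permutation p = 0.0571, adjusted p = 0.229). The other ratios had exact permutation p-values from 0.0857 to 0.83, and 0 of the 12 passed at an adjusted p under 0.05.

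**Figure D3:**
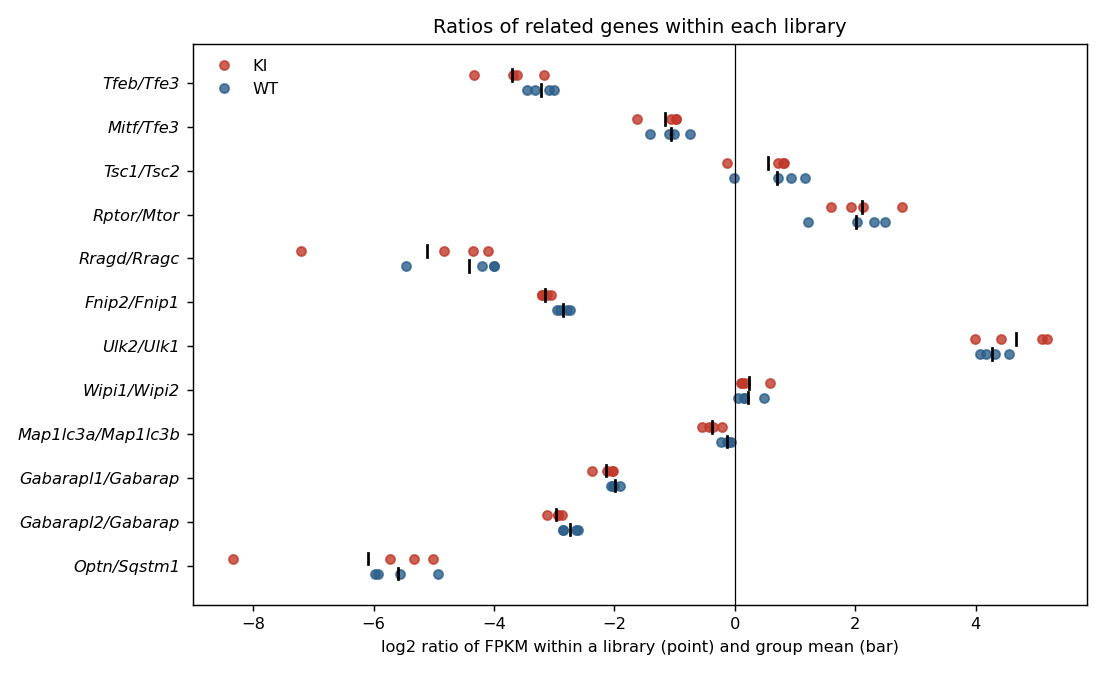
Log2 ratio of FPKM of 12 pairs of related genes within each library (points, KI above WT in each row) with group means (bars). KI and WT do not overlap for Fnip2 over Fnip1 and Gabarapl2 over Gabarap, and Rragd over Rragc and Optn over Sqstm1 show the widest spread.

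The cargo receptors and the tether had 3 members, all below 0. Sqstm1 encodes p62, which links ubiquitin-tagged cargo to LC3 and is itself degraded by autophagy. Sqstm1 had 222, 175, 186 and 196 CPM in KI, against 202, 213, 217 and 190 CPM in WT. KI mouse 513 was the highest of the 8 and mouse 526 the lowest, and the log2 fold change was -0.08 (95% interval -0.26 to 0.11, edgeR adjusted p = 0.893). Its exons share 17.3% of their bases with Mrnip.

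Epg5, which encodes a tether that brings autophagosomes to lysosomes, had the lowest fold change of the 44. It had 7.33, 6.73, 8.21 and 9.22 CPM in KI, against 16.5, 12.6, 10.2 and 19.7 CPM in WT. All 4 KI mice were below all 4 WT mice, and the 2 closest, KI mouse 549 and WT mouse 506, were 9.22 and 10.2 CPM. KI over WT came to -0.91 on the log2 scale, a level 0.534 times that in WT, with an SE of 0.22, a 95% interval of -1.41 to -0.41 and an unadjusted p of 0.0023. The adjusted p was 0.507 in edgeR's quasi-likelihood test and 0.012 in DESeq2, while edgeR's likelihood ratio test gave 0.072 and limma-voom 0.455. It lies on chromosome 18, and its exons share no bases with another annotated gene.

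**Figure D4:**
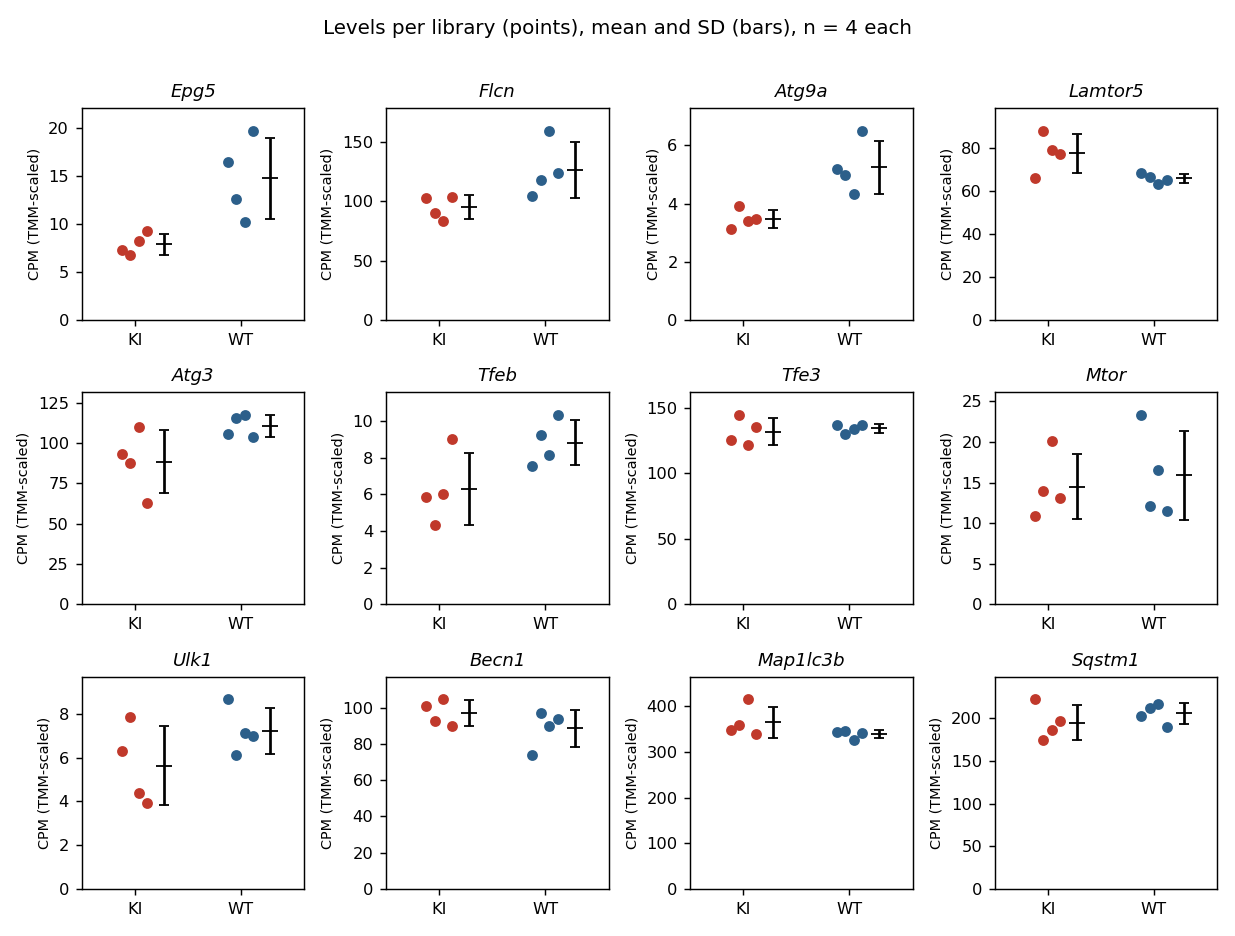
CPM per library (points) with mean and SD (bars, n = 4 each) for 12 members, KI left of WT. For Epg5, Flcn and Atg9a the 4 KI points lie below the 4 WT points, and for all other members shown the groups overlap.

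Deviations of the members were taken from each member's mean over the WT libraries, so WT values lie around 0 by construction. The median deviation was -0.04, -0.08, -0.07 and -0.04 log2 units in KI mice 513, 526, 528 and 549. It was 0.06, -0.0040, -0.04 and -0.01 in WT mice 503, 504, 506 and 527. WT mouse 506 fell within the KI range. Members with a GC content above 50.8% had a median log2 fold change of -0.12 (17 of 22 below 0), and those at or below it had -0.10 (14 of 22 below 0), against -0.08 and 0.04 for all genes tested, split at the same value. With trends of deviation on GC content and exon length removed, the median over the members was -0.054. Under that correction 5 members close to 0 changed sign: Rptor, Atg2a, Tfe3 and Ulk2 came to 0.14, 0.10, 0.052 and 0.00014, and Rragc to -0.011, while Epg5, Atg9a and Flcn were at -0.85, -0.47 and -0.32. Their unadjusted p-values in the edgeR fit on the corrected values were 0.0039, 0.069 and 0.023, so Atg9a was no longer under 0.05, and Lamtor5 at 0.17 had 0.091. Tfeb and Ulk1 came closer to 0, to -0.30 and -0.20 from -0.48 and -0.36 as fitted. Atg3 moved away from 0, to -0.39 from -0.32.

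**Figure D5:**
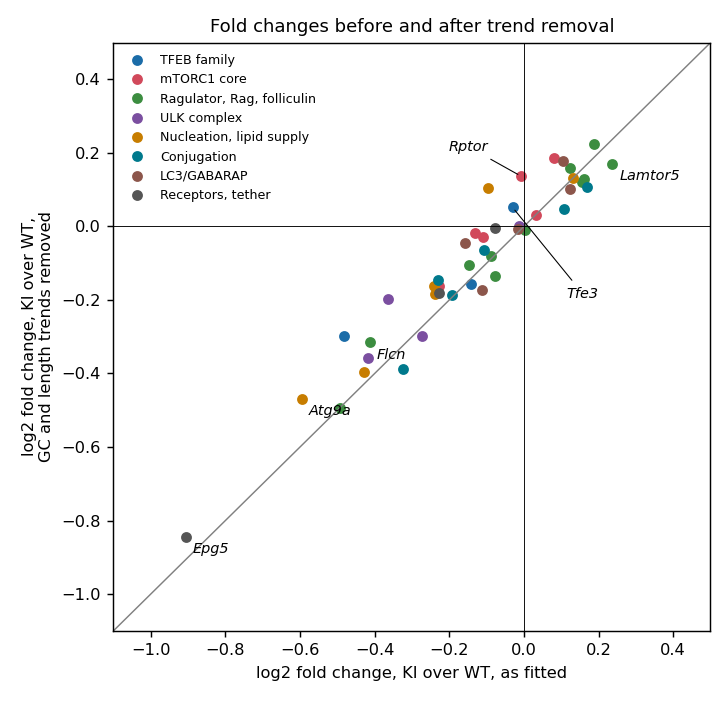
Log2 fold change of KI over WT for each member as fitted (horizontal axis) and with GC and length trends removed (vertical axis), coloured by role, with the line of equality. Most members lie near the line, and Rptor, Tfe3 and Atg2a move from below 0 to above it.

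By promoter, the 9 members with CACGTG in the window had a median log2 fold change of 0.0017, 5 of them above 0, and the 28 without had -0.11, with 5 above 0. No test was made of this difference, and the presence of the letters says nothing on whether a factor binds there.

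Genes of the same pathways outside the 44 were taken from 3 lists, chosen by role with earlier results of these data known. The shares of these lists therefore describe the listed genes and are no test of the pathways. Of 111 listed genes, 107 were tested. The edgeR quasi-likelihood test called 0 of them, 17 (15.9%) had an unadjusted p under 0.05, against the 7.79% of all genes, and 14 of these were lower in KI. Between groups 11 (10.3%) did not overlap, against the 4.94% of all genes, and 10 of these were lower in KI. In the list of TFEB target genes, 8 of 26 genes (30.8%) had an unadjusted p under 0.05, 7 of them lower, and 6 (23.1%) did not overlap, all lower. The list's median was -0.10, with 18 of 26 below 0.

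Among the target genes, Pip4p1, which encodes a lysosomal phosphoinositide phosphatase, had 81.3 ± 3.7 CPM in KI and 127 ± 18.3 in WT, at a log2 fold change of -0.64 (SE 0.10) and an edgeR adjusted p of 0.240. Lamp1, which encodes a major protein of the lysosome membrane, had 332 ± 60.2 CPM in KI and 534 ± 61.8 in WT, at -0.69 (SE 0.13, adjusted p = 0.414). Hexa, which encodes a lysosomal enzyme, had 741 ± 46.2 CPM in KI and 833 ± 24.5 in WT, at -0.17 (SE 0.06, adjusted p = 0.562). For these 3 genes all KI libraries were below all WT libraries. DESeq2 called Pip4p1 and Lamp1 at adjusted p of 1.6e-05 and 0.0018.

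In the list of other mTORC1 genes, 6 of 38 (15.8%) had an unadjusted p under 0.05, against 7.79% of all genes, 5 of them lower, and the median was -0.03. Stk11, the LKB1 kinase upstream of AMPK, had -0.65 (SE 0.22), Castor1, an arginine sensor, had -0.48 (SE 0.17), and Nprl3 and Nprl2, subunits of the GATOR1 complex that switches Rag GTPases off, had -0.37 and -0.36. Their edgeR adjusted p-values ran from 0.564 to 0.609. In the list of other autophagy genes 3 of 43 (6.98%) had an unadjusted p under 0.05, a share below the 7.79% of all genes, 2 of them lower, with a median of -0.0021. Nbr1, a cargo receptor, had 59.9 ± 4.5 CPM in KI and 75.6 ± 3.9 in WT, at -0.34 (SE 0.09), without overlap (adjusted p 0.507 in edgeR, 0.0062 in DESeq2). Nrbf2, a subunit of the beclin 1 complex, had -0.35, Vmp1, a membrane protein of autophagosome formation, had 0.19, and Bnip3l, a mitophagy receptor, had 0.14, with edgeR adjusted p of 0.622, 0.598 and 0.673.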

How the data were processed

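The RNA-seq libraries were grouped by the genotype in the labels. The submitters' processing notes name STAR 2.7.5c and featureCounts 2.0.3 among the tools, and mm10 as the build. The authors deposited counts of reads per gene and the exon length of each gene in bases. Per the file headers, the count of a gene came from featureCounts over its exons without a strand option, and mates of a pair may each be counted. The authors also deposited FPKM values, which equal the scaled count per kilobase of exon length less 187 to 190 bases. In the deposited counts, 8 columns that match no sample of this series were not used.

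Counts were filtered (edgeR filterByExpr by group, minimum count 10, minimum total 15), scaled by TMM and tested with edgeR 4.0.16 quasi-likelihood in R 4.3.3, with Benjamini-Hochberg adjustment over all 17291 genes tested and a threshold of 0.05. The test was also run on counts simulated with the fitted spread of each gene. These held no GC or length trends, so that check does not cover them. Alternatives were DESeq2 1.42.0, edgeR's likelihood ratio test, limma 3.58.1 (voom, and log2 of FPKM plus 1), DESeq2 size factors, no count filter, removal of GC and length trends, counts per exon length for the ratios, and leaving out each library. GC content was that of the longest GENCODE vM21 transcript. Pair ratios and library measures were compared by 2-sided exact permutation tests over 70 assignments. Gene copies were matched with BLAST+ 2.17.0. Reads carry no molecular identifiers. Taking reads as independent, a count of 0 allows up to 3 reads, or 0.0555 to 0.0664 CPM, for counting error only. Of the low counts in a library, 68.9% to 70.8% were even, as when both mates of a pair are counted. The limit is then higher than stated. Every pair of libraries differed by more than sampling noise (chi-square per degree of freedom 28.4 to 66.2 over 28 pairs).

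The 44 members and the other lists were chosen with earlier results of these data known. Values in every library are given for members with an unadjusted p under 0.05, for those without overlap, and for Tfeb, Tfe3, Mtor, Ulk1, Becn1, Map1lc3b and Sqstm1 whatever their values. Fnip1, Fnip2 and Atg13 were added after their values were seen. Of each other list, up to 4 genes with the smallest unadjusted p are named, and 1 that the rule names is not reported here.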

Additional observations from a re-analysis of the deposited data

Results flagged for a closer look

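Over 142 groups of 4 libraries (members, ratios and library measures), 10 held 1 library far from the other 3 by Dixon's criterion at its 95% critical value, or 7.04%, where chance gives about 1 in 20.

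Among the members, Wipi1, which binds a phosphoinositide on the forming membrane, stood at 12.9 CPM in KI mouse 549, against 9.65 to 10.1 CPM in the other KI mice, and its relative Wipi2 at 30.7 CPM in WT mouse 527, against 24.9 to 25.8 CPM in the other WT mice. The log2 ratio of Wipi1 to Wipi2 FPKM was 0.57 in KI mouse 526, against 0.09 to 0.16 in the other KI mice. The log2 ratio of Mitf to Tfe3 was -1.62 in KI mouse 526, against -1.06 to -0.97. The log2 ratio of Tsc1 to Tsc2 was -0.13 in KI mouse 549, against 0.71 to 0.82. The log2 ratio of Rragd to Rragc was -5.47 in WT mouse 506, against -4.21 to -4.00 in the other WT mice.

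Among the library measures, KI mouse 526 had 27800 genes with a read, against 26424 to 26584 in the other KI mice. The summed lymphocyte markers stood at 3.84 CPM in KI mouse 528, against 0.268 to 0.396, and the summed astrocyte markers at 320 CPM in KI mouse 549, against 380 to 387. The summed neutrophil markers stood at 18.4 CPM in WT mouse 504, against 0.198 to 0.421 in the other WT mice.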

How the results depend on the processing

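No paired analysis was possible because the mouse numbers are not shared between KI and WT. With DESeq2, 1 member (Epg5), 248 of all genes and 4 other pathway genes (among them Nbr1, Lamp1 and Pip4p1) were called, with edgeR's likelihood ratio test 42 of all genes and 3 other pathway genes, and with limma on log2 FPKM 1 of all genes, against 0 in the quasi-likelihood test; the cause was not tested. With GC and length trends removed, the median of the members was -0.054 and Tfe3 and Rptor reversed by more than their SE, to 0.052 and 0.14. Leaving out each library gave 0 calls throughout, medians from -0.13 to -0.064, 2 to 7 members with an unadjusted p under 0.05, and 3 to 9 members without overlap. The count at an unadjusted p under 0.05 was 7 without KI mouse 549 (15.9% of the members, against 9.13% of all genes) and 6 without WT mouse 503 (13.6%, against 8.43%). It was 5 without KI mouse 528 (11.4%, against 6.38%) and 4 without KI mouse 513 (9.09%, against 7.46%). It was 3 without KI mouse 526, WT mouse 504 or WT mouse 506 (6.82%, against 7.01%, 6.85% and 5.67%) and 2 without WT mouse 527 (4.55%, against 6.21%). The count without overlap was 9 without KI mouse 549 (20.5%, against 9.58% of all genes), 7 without WT mouse 503 (15.9%, against 9.94%) and 5 without WT mouse 506 (11.4%, against 7.04%); with 3 against 4 libraries all genes separate more often, from 7.04% to 9.94%, and the median was -0.064 without WT mouse 503 and -0.07 without WT mouse 504. Of 660 member values under 15 alternatives each, 36 in 14 members changed sign, none with a log2 fold change in the main test larger than 0.23 in size, and 30 members kept their sign in all 15. Epg5 stayed between -1.05 and -0.73 and Flcn between -0.49 and -0.28 with a library left out. Of 108 values of the pair ratios, 9 changed sign, and with 3 against 4 libraries the smallest exact permutation p is 0.0571.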
